A study of Mus musculus with 8 samples.

Results

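The cytosolic ribosomal protein genes are the rows of the deposited counts table whose symbol is Rpl or Rps followed by the usual number and letter, or is Rpsa. The rule found 82 of the 11354 genes: 46 named for the large subunit, 33 for the small subunit and the 3 stalk protein genes Rplp0, Rplp1 and Rplp2. GENCODE annotates 2 of them, Rpl32l and Rps4l, as pseudogenes. It was applied to names alone, and all 82 members passed the filter on low counts. The libraries are poly(A) RNA of CD4+ T cells, in Black6 mice, that had been transferred into RAG-/- hosts, mice that make no mature T or B cells. The tested libraries carry the label of Nlrp6-/- donor cells (labelled Nlrp6ko, hosts 1, 2, 4 and 5, here KO 1, KO 2, KO 4 and KO 5), and the others that of Wild Type donor cells (labelled WT, hosts 1, 2, 4 and 5, here WT 1, WT 2, WT 4 and WT 5). The host deficiency and the transfer are common to all 8 libraries, the labels give no age or time after transfer, and 1 field places the cells in the host spleen while the design text places them in the colonic lamina propria.

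Nlrp6, the targeted gene, went against the labels. It had 487, 329, 477 and 648 counts in KO 1, KO 2, KO 4 and KO 5, against 5, 3, 3 and 8 counts in WT 1, WT 2, WT 4 and WT 5. Every direction below is therefore that of the libraries labelled Nlrp6ko over the libraries labelled WT. Totals ran from 35198192 counts in KO 4 to 40310721 in WT 1. Of 14 T cell markers, 11 were listed, with a summed level of 6677 to 7319 CPM (counts scaled to a common effective library size) in the libraries labelled Nlrp6ko and 7011 to 7970 CPM in those labelled WT. By edgeR 1 of the 11 was higher and 2 were lower in libraries labelled Nlrp6ko, where all genes gave 6.2% higher and 3.84% lower. At an unadjusted edgeR p below 0.05, 1 was higher and 5 were lower, where all genes gave 12.6% and 10.8%. The median log2 fold change of the 11 was -0.11. Trac, Trbc1 and Trbc2, the antigen receptor constant genes of the list, are not analysed here. The 20 macrophage and monocyte markers summed to 314.1, 535.3, 941.6 and 700.8 CPM in KO 1, KO 2, KO 4 and KO 5, against 118.0, 94.3, 70.5 and 91.4 CPM in WT 1, WT 2, WT 4 and WT 5, and 17 of the 20 were higher by edgeR. The 9 markers of antigen presenting cells summed to 472.0, 801.2, 1359 and 987.9 CPM in KO 1, KO 2, KO 4 and KO 5, against 114.3, 100.6, 65.6 and 110.5 CPM in WT 1, WT 2, WT 4 and WT 5, with 7 of 9 higher. The 5 epithelial markers summed to 34.2 to 38.9 CPM in libraries labelled Nlrp6ko and 29.2 to 44.2 CPM in those labelled WT, with 0 called (1 lower at an unadjusted p below 0.05, 0 by DESeq2), and B cell markers are not analysed here. The part of these cells in the ribosomal protein values was not tested, beyond the fits without libraries given below, and in bulk RNA fewer cells of a type and less RNA per cell cannot be told apart.

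Ribosomal proteins surround the ribosomal RNAs of the small subunit, which decodes mRNA, and of the large subunit, which joins amino acids. The stalk proteins recruit the GTPases that drive elongation. Their mRNAs are typical of the class with a terminal oligopyrimidine tract (TOP): transcription starts at a C followed by a run of C or T, and translation of such mRNAs depends on mTORC1 signalling, which T cells raise when they are activated. Mammalian ribosomal protein genes each tend to have 1 copy with introns that makes most of the mRNA, and many processed pseudogenes, which are intronless copies made by reverse transcription. Such copies can resemble the mRNA so closely that a short read cannot be placed.

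Stretches of 30 bases around annotated starts show the TOP feature in members picked from those that have it there. The pyrimidine run from the RefSeq start (GRCm38.p6) is in capitals, on the strand of the gene. Rps6, a small subunit protein phosphorylated downstream of mTORC1, starts within chr4:86857348-86857377 (minus strand), Rpl28 within chr7:4792955-4792984, Rpl38 within chr11:114668570-114668599 and Rplp2 within chr7:141447641-141447670 (plus strand for these 3).
Rps6: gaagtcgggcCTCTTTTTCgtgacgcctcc
Rpl28: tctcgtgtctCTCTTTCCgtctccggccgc
Rpl38: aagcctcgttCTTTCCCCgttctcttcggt
Rplp2: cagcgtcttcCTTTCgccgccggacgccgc
A C at the annotated start followed by 4 bases that are each C or T, read on the transcribed strand only, was found in 14 of the 61 members with a RefSeq promoter entry (23.0%). Among the 9075 listed genes with an entry it was found in 267 (2.94%). An annotated start can lie some bases from the true one, so a gene without a match has only no such letters at that position.

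A second set of sequences shows how near the listed copies lie to their genes. Each pair below covers the same 81 coding bases, the length of a read in this study, around the base where gene and copy (GENCODE vM21, GRCm38) first differ, and the bases that differ are in capitals. The pairs are Rpl26 (chr11:68901566-68904534) with the pseudogene Gm15772 (chr5:3236390-3236928), Rpl37 (chr15:5116613-5119140) with the retrotransposed copy Rpl37rt (chr5:115102922-115110268), Rpl22l1 (chr3:28805508-28807424) with the pseudogene Gm15421 (chr5:22528221-22529030), and Rpl14 (chr9:120571517-120574653) with the pseudogene Rpl14-ps1 (chr7:45324958-45325651).
Rpl26: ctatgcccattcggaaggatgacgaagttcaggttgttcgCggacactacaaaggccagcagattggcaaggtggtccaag
Gm15772: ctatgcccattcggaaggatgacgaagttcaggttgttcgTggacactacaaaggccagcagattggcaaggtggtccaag
Rpl37: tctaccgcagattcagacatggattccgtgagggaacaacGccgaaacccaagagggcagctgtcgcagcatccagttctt
Rpl37rt: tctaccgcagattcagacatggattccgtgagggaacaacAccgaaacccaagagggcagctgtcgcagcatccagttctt
Rpl22l1: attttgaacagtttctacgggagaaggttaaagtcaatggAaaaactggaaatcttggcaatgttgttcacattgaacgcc
Gm15421: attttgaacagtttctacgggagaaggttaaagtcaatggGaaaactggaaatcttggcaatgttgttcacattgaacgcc
Rpl14: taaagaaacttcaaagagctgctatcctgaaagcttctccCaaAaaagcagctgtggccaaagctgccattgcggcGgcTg
Rpl14-ps1: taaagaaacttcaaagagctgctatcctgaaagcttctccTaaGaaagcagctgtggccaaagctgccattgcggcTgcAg
Over the whole coding sequence Rpl26 and Gm15772 differed at 2 of 435 bases, Rpl37 and Rpl37rt at 1 of 291 and Rpl22l1 and Gm15421 at 2 of 366. Rpl14 and Rpl14-ps1 had 4 differing positions in the 81 bases shown, and no count over the whole coding sequence is given for them. All pairs were compared position by position without gaps, so an inserted or deleted base would mark bases after it as different. The longest identical stretch was 176 bases for Rpl26, 248 for Rpl37, 219 for Rpl22l1 and 419 for Rpl14, each longer than a read.

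The share of all counts that the ribosomal protein genes took overlapped between the labels, and its difference against the spread of replicates depended on the denominator. The share was 2.73%, 2.63%, 2.49% and 2.73% in KO 1, KO 2, KO 4 and KO 5, against 2.62%, 2.59%, 2.59% and 2.57% in WT 1, WT 2, WT 4 and WT 5. KO 1, KO 2 and KO 5 lay above every library labelled WT, and KO 4 lay below every one of them. KO 2 was above by the least, 2.629% against 2.624% in WT 1. The mean was 2.65 ± 0.11% in libraries labelled Nlrp6ko and 2.59 ± 0.02% in libraries labelled WT (SD, n = 4 each), and the difference of 0.0515 percentage points was smaller than the spread of 0.0817 points between replicates (pooled SD; two-sided exact permutation test, p = 0.314). Leaving out 1 library gave a difference of 0.0228 points without KO 1, 0.0235 without KO 5 and 0.103 without KO 4. A second denominator was the effective library size, the total scaled by a factor from a trimmed mean of log ratios between libraries (TMM). Of it the share was 2.74%, 2.63%, 2.57% and 2.70% in KO 1, KO 2, KO 4 and KO 5, against 2.59%, 2.61%, 2.57% and 2.54% in WT 1, WT 2, WT 4 and WT 5. By this denominator the difference of 0.0826 points was larger than the pooled SD of 0.0555 points, and the labels still overlapped (two-sided exact permutation test, p = 0.0857). The plan gave the share as a description only, so both permutation tests stand outside it. KO 4, the library of the lowest share by either denominator among those labelled Nlrp6ko, also had the most macrophage marker RNA.

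**Figure D1:**
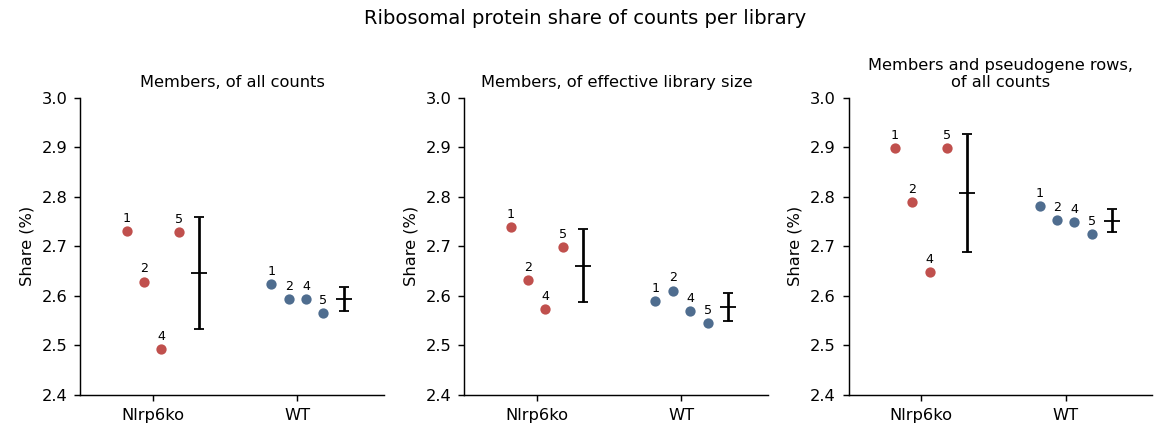
Ribosomal protein share of counts (percent, axis from 2.4 to 3.0) in each library, with libraries labelled Nlrp6ko left of those labelled WT. Dots are libraries with their host number, and the bar is the mean with 1 SD (n = 4). KO 4 at 2.49% and KO 1 at 2.73% span a wider range than the libraries labelled WT in the left panel.

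The counts were spread unevenly over the members. Rpl4, Rplp0, Rpl13a and Rps3 each held over 0.1% of all counts and together 24.3% of the members' counts. Rplp0, the base of the stalk, had 0.197%, 0.188%, 0.170% and 0.197% in KO 1, KO 2, KO 4 and KO 5, against 0.189%, 0.182%, 0.183% and 0.178% in WT 1, WT 2, WT 4 and WT 5. The labels overlapped for it, with KO 4 the lowest library. Another 13 members held 0.0518% to 0.0856% each, among them Rpl8, Rps9, Rpsa, Rplp1, Rps4x, Rpl3, Rpl32, Rps15, Rpl10, Rps6 and Rpl7. The 13 held a further 32.8% of the members' counts.

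Next came 23 members at 0.0212% to 0.0491% each and 27.4% of the members' counts, among them Rpl41, the shortest protein of the family, Rps14, Rps24, Rps3a1, Rpl6, Rpl23, Rps15a, Rpl27a, Rpl19, Rpl5, Rps18, Rps19, Rps20, Rps10, Rpl26, Rpl37a, Rpl34, Rpl27, Rpl22, Rplp2, Rpl14 and Rpl23a. A further 22 members held 0.0104% to 0.0193% each, among them Rps25, Rpl18, Rpl35a, Rpl7a, Rpl35, Rpl15, Rps7, Rpl10a, Rps26, Rps21, Rps2, Rps27a, Rpl39, Rps16, Rpl17, Rps28, Rpl30, Rps12, Rpl37, Rpl29 and Rps27. Another 16 members held 0.0014% to 0.00954% each, among them Rpl11, Rpl21, Rpl24, Rpl9, Rpl22l1, Rpl13, Rpl7l1, Rps13, Rpl36a, Rpl31, Rps29, Rpl36, Rpl32l, Rps27l and Rpl12. Rpl38, Rpl28, Rps4l and Rps23 held less than 0.001% each.

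The 4 members of lowest share were near the floor of the table. Rps23, Rpl28 and Rpl38 are constitutive ribosomal proteins, while GENCODE annotates Rps4l as a pseudogene. Rps23, a protein of the decoding centre, had 60, 70, 55 and 68 counts in KO 1, KO 2, KO 4 and KO 5, against 59, 56, 47 and 41 counts in WT 1, WT 2, WT 4 and WT 5. Rpl28 had 69, 88, 93 and 81 counts in KO 1, KO 2, KO 4 and KO 5, against 102, 71, 86 and 59 counts in WT 1, WT 2, WT 4 and WT 5. Rpl38, which in mouse embryos is required for patterning of the axial skeleton, had 234, 216, 137 and 229 counts in KO 1, KO 2, KO 4 and KO 5, against 202, 231, 202 and 191 counts in WT 1, WT 2, WT 4 and WT 5. Each of these genes was low in all 8 libraries, so the low level does not go with a label. Rps4l was the most uneven member, with 36, 120, 41 and 27 counts in KO 1, KO 2, KO 4 and KO 5, against 39, 6, 59 and 144 counts in WT 1, WT 2, WT 4 and WT 5.

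Per kilobase of the deposited gene length the order of levels differed from that of the shares. Rplp1 led with a mean of 60555 counts per kilobase over the 8 libraries, followed by Rplp0 with 52816, Rpl4 with 50817 and Rpl32 with 45909. The lowest were Rps4l with 62.7 counts per kilobase, Rps23 with 103, Rpl28 with 164 and Rpl38 with 556. The stalk proteins P1 and P2 sit on the ribosome as heterodimers, and Rplp2 stood at 19510 counts per kilobase, under Rplp1. The level of Rplp2 is uncertain, since its listed copy Rplp2-ps1 had 1.29 to 1.78 times its counts. The deposited lengths run from 331 bases for Rps28 to 5134 for Rps15a, and a long one lowers the level of a gene whose mRNA is short.

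Between the labels 2 of the 82 members passed the test, Rps29 and Rpl23a, both higher in libraries labelled Nlrp6ko, and 0 were lower (edgeR quasi-likelihood test, Benjamini-Hochberg adjusted p below 0.05 over all genes). Of all 11354 genes 6.2% were called higher and 3.84% lower, so the members' 2.44% called higher and 0% called lower lie under the background. DESeq2 called 3 members higher and 0 lower, where all genes gave 8.16% and 5.75%. At an unadjusted p below 0.05 there were 12 members higher, 14.6% against 12.6% of all genes, and 0 lower, against 10.8% of all genes. The members' differences were small: the median log2 fold change was 0.046, against -0.003 over all genes, with a median standard error of 0.04, and 65 of 82 lay within 0.1 of 0. For 76 of the 82 the fold change with 2 standard errors on either side stayed within 1.3-fold of no difference.

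The signs were uneven. The log2 fold change was positive for 64 of 82 members, against 49.0% of all genes: 34 of 46 in the large subunit, 27 of 33 in the small subunit and all 3 stalk proteins. The median was 0.04 in the large subunit, 0.07 in the small subunit and 0.06 in the stalk. With total library size in place of TMM factors 57 were positive and the median was 0.03. The members share libraries and scaling, so these signs are no independent observations.

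**Figure D2:**
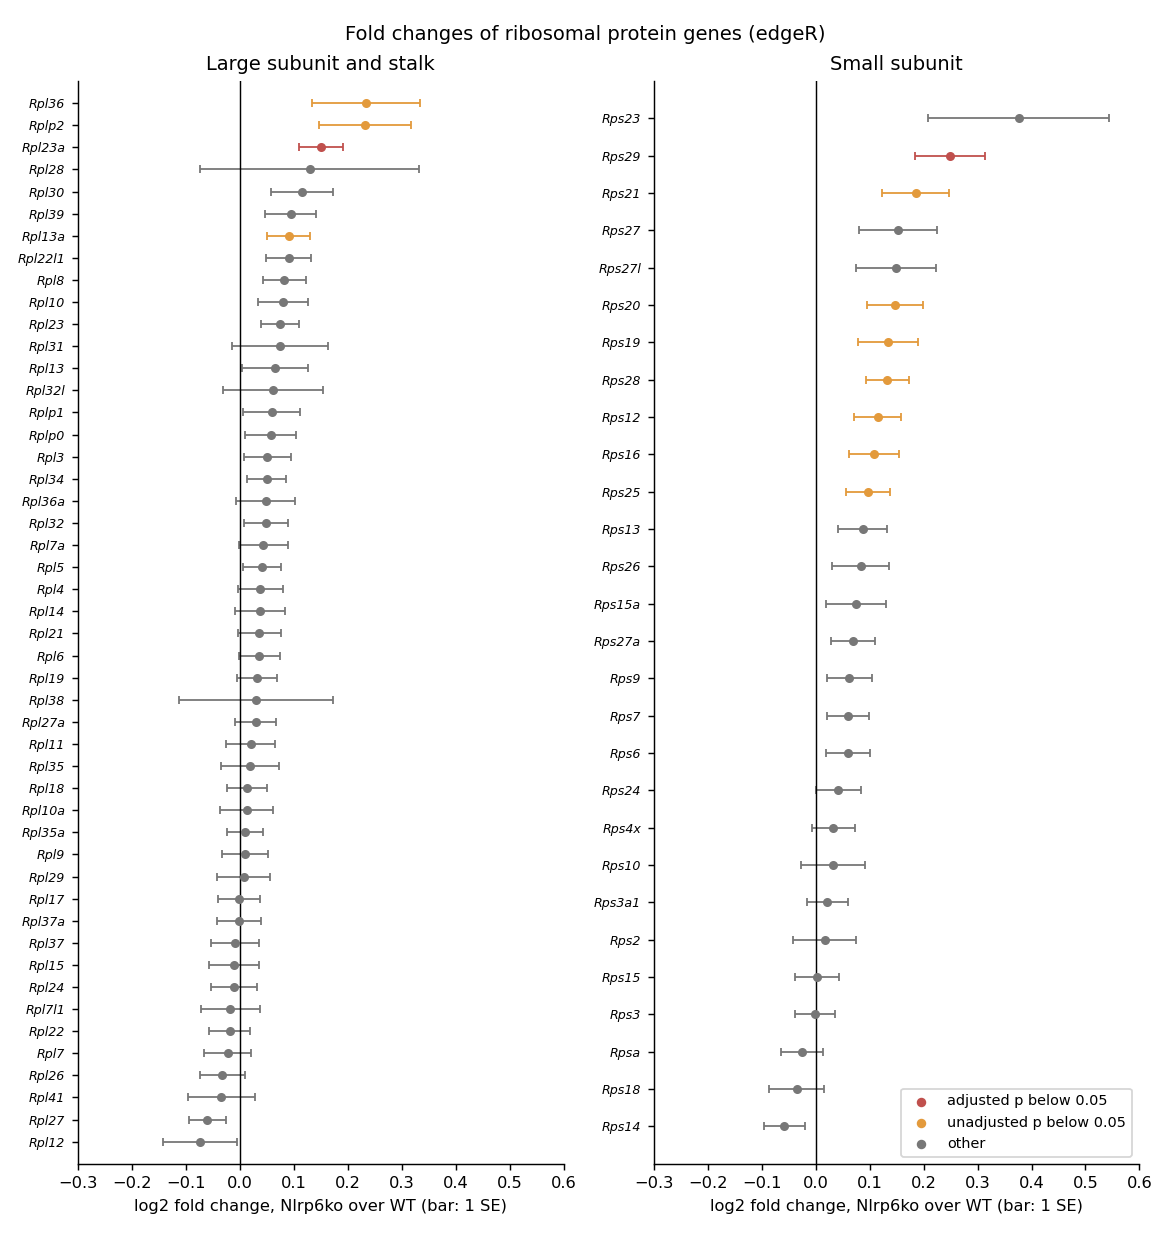
Log2 fold changes of 76 of the 82 members (Nlrp6ko over WT, bar 1 standard error), large subunit and stalk on the left and small subunit on the right. Rps4l is not drawn for its standard error of 0.74, nor are 5 members whose single values are not reported here. Rps29 and Rpl23a passed the adjusted test and 10 more members had an unadjusted p below 0.05, all to the right of 0.

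Rps29, a small zinc-binding protein of the head of the small subunit (chr12:69157722-69159186), had 31.5, 28.2, 33.7 and 31.5 CPM in KO 1, KO 2, KO 4 and KO 5, against 27.8, 25.3, 25.04 and 27.0 CPM in WT 1, WT 2, WT 4 and WT 5. Every library labelled Nlrp6ko lay above every library labelled WT. The log2 fold change was 0.25 ± 0.06 (SE, edgeR adjusted p = 0.0403). Rpl23a, which lies at the exit of the peptide tunnel (chr11:78180935-78183584), had 228, 212, 228 and 224 CPM in KO 1, KO 2, KO 4 and KO 5, against 209, 201, 199.9 and 193 CPM in WT 1, WT 2, WT 4 and WT 5. The groups did not overlap, by a margin of KO 2 over WT 1, and the log2 fold change was 0.15 ± 0.04 (SE, edgeR adjusted p = 0.0490). Neither call was firm: of the 8 fits that leave out 1 library, only that without KO 2 kept them, and without any 1 of the other 7 (KO 1, KO 4, KO 5, WT 1, WT 2, WT 4 and WT 5) the adjusted p reached up to 0.114 for Rps29 and 0.138 for Rpl23a.

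The members next in order of p did not pass. Rps28 had 139.6, 126.7, 134.7 and 139.0 CPM in KO 1, KO 2, KO 4 and KO 5, against 123.3, 124.0, 121.8 and 123.4 CPM in WT 1, WT 2, WT 4 and WT 5, with a log2 fold change of 0.13 ± 0.04 (SE, edgeR adjusted p = 0.0723). Its groups did not overlap, with KO 2 closest to the libraries labelled WT. Rps21 averaged 163 ± 14.4 CPM in libraries labelled Nlrp6ko and 143 ± 4.71 CPM in libraries labelled WT (SD, n = 4 each), led by KO 4 at 183 CPM. Its groups did not overlap either, by the narrow margin of KO 2 at 149.1 CPM over WT 2 at 147.4 CPM. Rps12 averaged 127 ± 6.35 CPM in libraries labelled Nlrp6ko and 118 ± 2.18 CPM in libraries labelled WT. Its groups were apart only by KO 4 at 120.9 CPM over WT 2 at 120.3 CPM. Rplp2, the stalk protein with the pyrimidine run shown above, averaged 241 ± 26.2 CPM in libraries labelled Nlrp6ko and 205 ± 17.2 CPM in libraries labelled WT, with overlap because KO 2 stood at 211 CPM.

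Rps20 and Rps19 were split within the libraries labelled Nlrp6ko. Rps20 had 303, 297, 265 and 303 CPM in KO 1, KO 2, KO 4 and KO 5, against 271, 258, 271 and 254 CPM in WT 1, WT 2, WT 4 and WT 5. Rps19, a protein whose human gene is mutated in Diamond-Blackfan anaemia, had 302, 300.4, 260.0 and 302 CPM in KO 1, KO 2, KO 4 and KO 5, against 253, 268, 271 and 269 CPM in WT 1, WT 2, WT 4 and WT 5. For both genes KO 4 alone fell into the range of the libraries labelled WT. Without KO 4 both passed the test, Rps20 at a log2 fold change of 0.19 and an edgeR adjusted p of 0.0170 and Rps19 at 0.18 and 0.0179, whereas with all libraries the edgeR adjusted p was 0.119 for Rps20 and 0.178 for Rps19.

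**Figure D3:**
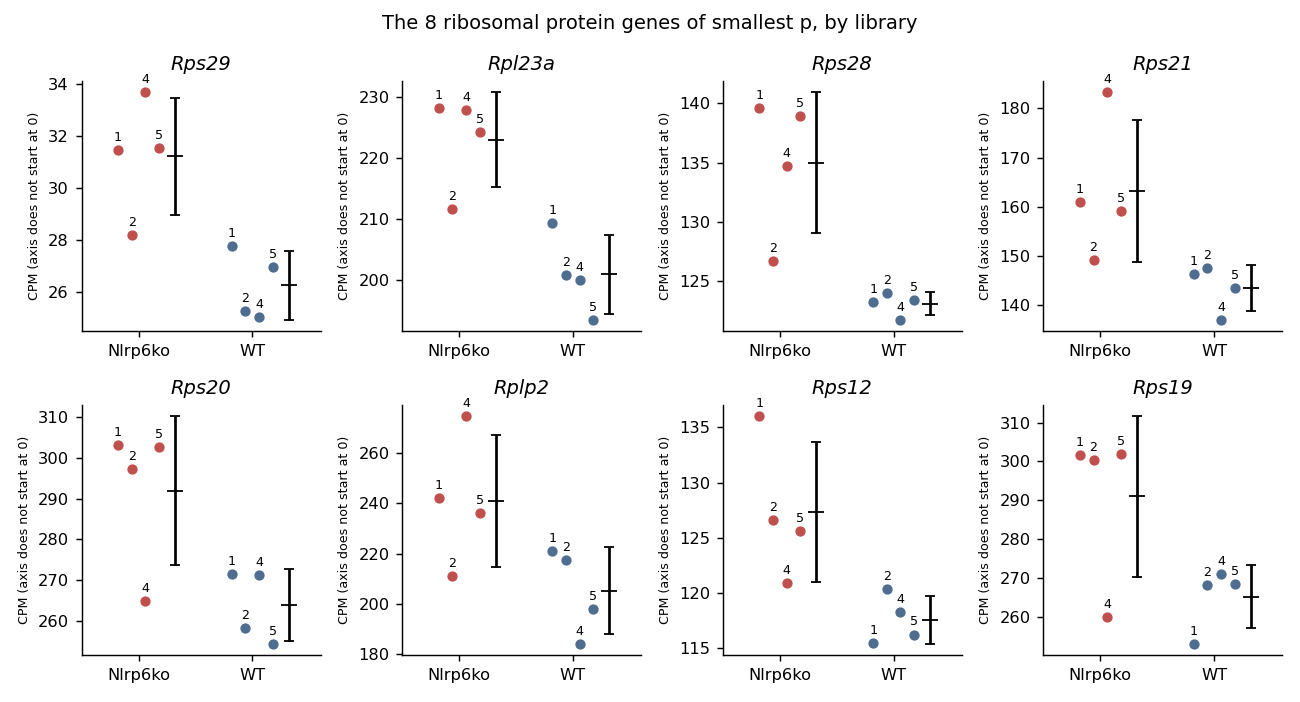
CPM per library of the 8 members of smallest p, libraries labelled Nlrp6ko left of those labelled WT, with the host number at each dot and the mean with 1 SD (n = 4) beside them. Axes do not start at 0. KO 4 is the highest library for Rps29, Rps21 and Rplp2 and the lowest of its label for Rps20, Rps12 and Rps19.

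By libraries that do not overlap in CPM, 9 members were higher in libraries labelled Nlrp6ko (Rpl13a, Rpl22l1, Rpl23, Rpl23a, Rps12, Rps21, Rps23, Rps28 and Rps29), where all genes gave 8.6%. Rpl27 was the 1 member lower, 1.22%, where all genes gave 7.37%. Rpl27 had 229, 222, 233 and 227 CPM in KO 1, KO 2, KO 4 and KO 5, against 236, 245, 236 and 234 CPM in WT 1, WT 2, WT 4 and WT 5, and its log2 fold change of -0.06 ± 0.03 (SE) did not pass (edgeR adjusted p = 0.347). Rpl13a, which in human myeloid cells also represses translation of inflammatory mRNAs when released from the ribosome, had 1547, 1456, 1506 and 1530 CPM in KO 1, KO 2, KO 4 and KO 5, against 1434, 1445, 1416 and 1377 CPM in WT 1, WT 2, WT 4 and WT 5. Its log2 fold change was 0.09 ± 0.04 (SE, edgeR adjusted p = 0.207). Rps23 had the largest fold change of all members, 0.38 ± 0.17 (SE), on counts of 41 to 70 a library (edgeR adjusted p = 0.215).

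None of the stalk proteins passed the test. Rplp2 stood at a log2 fold change of 0.23 ± 0.08 (SE, edgeR adjusted p = 0.131, unadjusted p = 0.0222). Its listed copy Rplp2-ps1 stood at 0.04 ± 0.04 (SE, edgeR adjusted p = 0.607), and the part of read placement in the Rplp2 value was not tested. Rplp0 had a log2 fold change of 0.06 ± 0.05 and Rplp1 of 0.06 ± 0.05 (SE, edgeR adjusted p = 0.545 and 0.574). Rpsa, the laminin receptor homologue on the small subunit, had a log2 fold change of -0.03 ± 0.04 and Rps3a1 one of 0.02 ± 0.04 (SE, edgeR adjusted p = 0.768 and 0.811). For Rplp0, Rplp1, Rpsa and Rps3a1, as for Rplp2, the labels overlapped in CPM.

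Some members are paralogs of another member by symbol. Rpl3l, Rpl10l and Rpl39l, the paralogs of Rpl3, Rpl10 and Rpl39, were not among the members. Rpl22l1, the paralog of Rpl22, averaged 65.6 CPM in libraries labelled Nlrp6ko and 61.6 CPM in libraries labelled WT, with a log2 fold change of 0.09 ± 0.04 (SE, edgeR adjusted p = 0.236), against -0.02 ± 0.04 for Rpl22. In mouse T cells Rpl22 is known to hold down Rpl22l1. Rps27l, a target of p53, had a log2 fold change of 0.15 ± 0.07 (SE, edgeR adjusted p = 0.266) and its partner Rps27 one of 0.15 ± 0.07 (SE, edgeR adjusted p = 0.242). Rpl7l1 and Rpl7 both stood at -0.02 (SE 0.06 and 0.04), Rps4x at 0.03 ± 0.04, Rpl3 at 0.05 ± 0.04, Rpl10 at 0.08 ± 0.05 and Rpl39 at 0.09 ± 0.05. None of these passed the test.

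KO 4 stood apart from KO 1, KO 2 and KO 5 across the members. It was the lowest of its label for 46 members, the highest for 11, and the middle for the rest, while KO 1 was the highest for 41 and the lowest for 4. Against the mean of the other 3 libraries of its label, KO 4 was higher by 0.44 (log2 CPM) for Rpl28, 0.28 for Rps27, 0.26 for Rplp2, 0.23 for Rpl36 and Rps21, 0.20 for Rps15a, 0.15 for Rps29 and 0.12 for Rpl30. It was lower by 0.52 for Rpl38, 0.27 for Rpl31, 0.26 for Rpl41, 0.21 for Rps19 and 0.20 for Rps10. These differences were lower at greater coding length (Spearman -0.32 across 80 coding members, which share the library), whereas the same value was 0.14 for KO 1, 0.23 for KO 2 and 0.11 for KO 5. KO 4 also had the fewest counts, the part of which was not tested. With KO 5 it had the library code 8, where all other libraries had 7. A fit with the code as a term compares the labels through KO 1 and KO 2 alone. Code and label therefore cannot be told apart in KO 4 and KO 5.

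The fold changes of members were also lower at greater coding length. Across the 80 members with a coding sequence Spearman's rho was -0.34, and it was -0.25 without KO 4 and -0.25 without KO 4 and KO 5. The 20 members of shortest coding sequence, up to 366 bases, stood at a median of 0.09 (log2 fold change) and the 20 longest, from 624 bases, at 0.04. Against the deposited gene length rho was -0.31 over the 82 members and -0.04 over all genes. The GC share of the coding sequence had a rho of -0.03 with the fold change.

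The reads of most members could be placed elsewhere as well. The coding sequences of the 82 members give 46287 windows of 81 bases (whole transcripts for the annotated pseudogenes Rps4l and Rpl32l), and 45.2% of them matched no other annotated gene exactly, 52.4% matched 1 to 9 other genes and 2.45% matched 10 or more. The median member had 41.4% of its windows to itself. As a family with few copies, the 77 mitochondrial ribosomal protein genes had a median of 100% of windows to themselves, and 17 of the 77 shared any. The members' windows were found in 655 other genes, 623 of them annotated as pseudogenes, of which 9 were listed in the counts table.

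Levels were higher in members with more windows to themselves. Spearman's rho was 0.35 over the 82 members for counts per kilobase of deposited length and 0.56 over the 80 coding members for counts per kilobase of coding sequence, as a description across genes that share libraries and length units. On the coding scale the median was 9291 counts per kilobase for the 21 members with under 25% of windows to themselves, 17566 for the 28 members at 25% to 50%, 28577 for the 18 members at 50% to 75% and 47308 for the 13 members at 75% or more. Those 13 held 32.6% of the members' counts on 16.9% of the coding members' windows, and the 21 held 14.5% on 29.4%. The fold change between labels did not follow the same measure (rho 0.03).

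**Figure D4:**
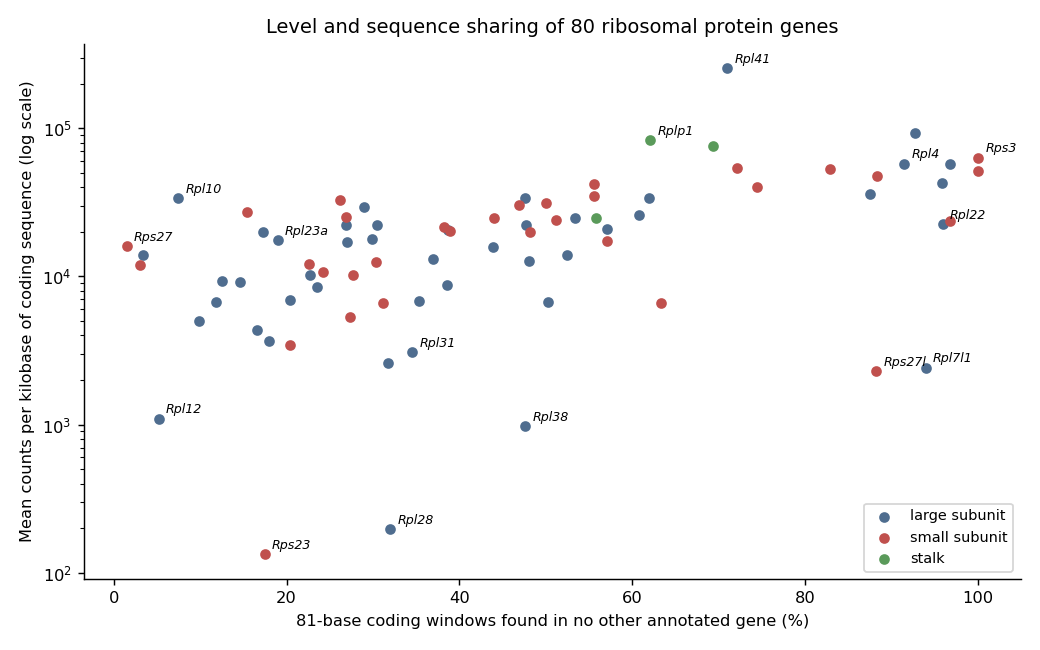
Mean counts per kilobase of coding sequence over the 8 libraries (log scale) against the percentage of 81-base coding windows found in no other annotated gene, for the 80 members with a coding sequence. Levels are higher to the right, with medians of 9291 under 25% and 47308 at 75% or more, while Rps23, Rpl28, Rpl38 and Rpl12 lie under and Rpl10 above the members around them, and Rpl41 stands high on a coding sequence of 75 bases.

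The relation had clear exceptions. Rpl10 had 7.43% of its windows to itself and 11 other genes that matched, and yet 25568 counts per kilobase of deposited length. Rps27 had 1.51% to itself, since Rps27rt, a copy annotated as coding, shared 98.5% of its windows, and it still had 6979 counts per kilobase. The paralogs Rpl7l1 and Rps27l were low with 94.0% and 88.3% of windows to themselves. Rpl38 had 47.6% to itself with 3 matching genes, and its 556 counts per kilobase were fewer than in Rpl21, which 57 other genes matched and which had 1475. Sequence sharing as counted here thus does not order the members fully.

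How much of the total is at stake can be given only as arithmetic. The 13 coding members with 75% or more of windows to themselves had 37.7 to 46.1 counts per window in libraries labelled Nlrp6ko and 41.5 to 45.2 in libraries labelled WT, between 2.37 and 2.41 times the density of the other coding members in every library. If all coding members had that density, the family's share would be 4.72% to 5.17% in libraries labelled Nlrp6ko and 4.81% to 4.94% in libraries labelled WT, where these coding members are listed at 2.49% to 2.73% in libraries labelled Nlrp6ko and 2.56% to 2.62% in libraries labelled WT. Members need not have equal mRNA levels, so this is no estimate of lost reads. How reads matching several genes were counted is not given in the sources used here, and its part in the low levels was not tested. Outside the family, the glycolytic gene Gapdh, with 83.8% of its windows in 10 or more other genes, had 461, 426, 428 and 384 counts in KO 1, KO 2, KO 4 and KO 5, against 542, 513, 614 and 506 counts in WT 1, WT 2, WT 4 and WT 5. Gapdh was the only gene searched outside the ribosomal protein families, and the part of sequence sharing in its counts was not tested.

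The pseudogene Gm15772 was listed with nearly the same counts as Rpl26. Gm15772 had 9744, 9784, 7817 and 10103 counts in KO 1, KO 2, KO 4 and KO 5, against 10297, 9878, 10091 and 9534 counts in WT 1, WT 2, WT 4 and WT 5. Rpl26 itself had 9736, 9784, 7814 and 10099 counts in KO 1, KO 2, KO 4 and KO 5, against 10291, 9872, 10090 and 9530 counts in WT 1, WT 2, WT 4 and WT 5. The rows differed by 0 to 8 counts in a library, less than the sampling noise of independent counts of this size, although the loci lie on different chromosomes, and in the sequences above they differ by 1 base. The values of Rpl26 and Gm15772 are thus not 2 measurements, and why the rows are alike was not tested.

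Other copies had counts of their own size. Rpl37rt had 1.96 to 2.24 times the counts of Rpl37 over the 8 libraries, Rpl14-ps1 1.85 to 2.02 times those of Rpl14, Rplp2-ps1 1.29 to 1.78 times those of Rplp2, and Gm15421 0.65 to 0.729 times those of Rpl22l1. Rps19-ps3 had 0.37 to 0.444 times those of Rps19 and Rps15a-ps6 0.389 to 0.458 times those of Rps15a. Reads of gene and copy may have been split between rows, so the levels of these members are uncertain. None of the 10 rows named as ribosomal protein pseudogenes or retrotransposed copies passed the test, and the smallest edgeR adjusted p was 0.0656 for Gm15421, with a log2 fold change of 0.15 ± 0.04 (SE). With the 10 rows added, the family's share was 2.81 ± 0.12% in libraries labelled Nlrp6ko and 2.75 ± 0.02% in libraries labelled WT (SD, n = 4 each).

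**Figure D5:**
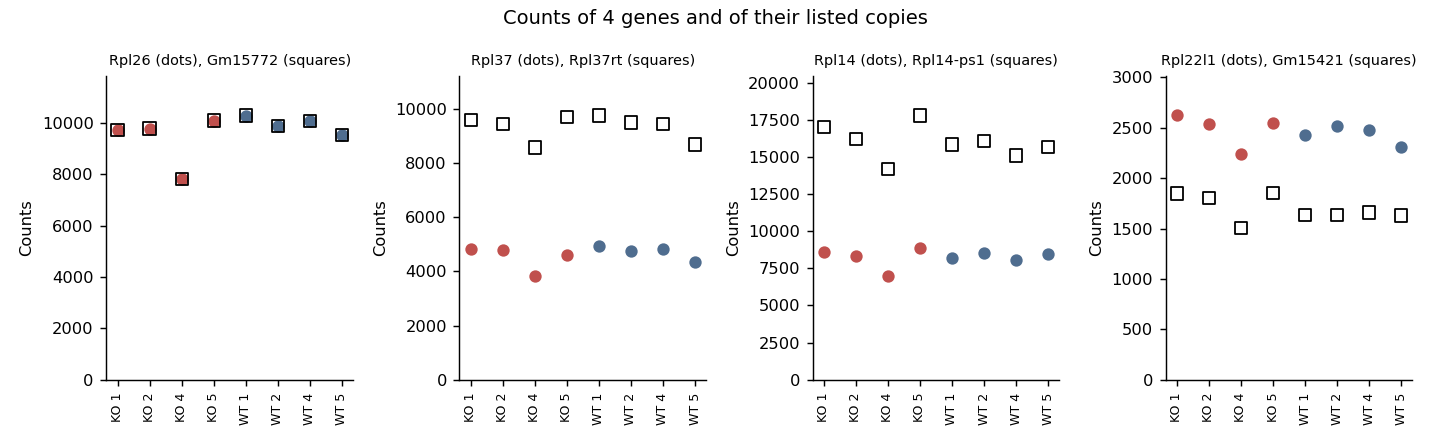
Counts of 4 members (dots, coloured by label) and of their listed copies (open squares) in each library, libraries labelled Nlrp6ko left of those labelled WT, axes from 0. Rpl26 and Gm15772 coincide in every library, Rpl37rt and Rpl14-ps1 lie near 2 times their genes, and Gm15421 lies below Rpl22l1.

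The median differences of lists of genes around the ribosome were about as small, while some single genes in them differed more than most members. Of 5 further components of the cytosolic ribosome, among them Fau and Rack1, 0 were called by edgeR, 0 by DESeq2 and 0 at an unadjusted p below 0.05, and the median log2 fold change was 0.01. The list includes Rpl41, which is a member. Of 16 translation factors and related genes with TOP mRNAs, 0 were called by edgeR, against 3 by DESeq2, where all genes gave 13.9%, and 3 higher at an unadjusted p below 0.05, where all genes gave 12.6%. The median was 0.01. The smallest p there was that of the elongation factor subunit Eef1g, which averaged 268 ± 3.41 CPM in libraries labelled Nlrp6ko and 250.1 ± 5.38 CPM in libraries labelled WT (SD, n = 4 each). Its log2 fold change was 0.10 ± 0.03 (SE, edgeR adjusted p = 0.103).

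Among 37 ribosome biogenesis factors 3 were higher and 0 lower (1 lower at an unadjusted p below 0.05, 5 called by DESeq2), where all genes gave 6.2% higher. The median of their log2 fold changes was 0.04. Nop58, a core protein of the box C/D particles that guide methylation of ribosomal RNA, averaged 103 ± 2.84 CPM in libraries labelled Nlrp6ko and 90.1 ± 4.07 CPM in libraries labelled WT (log2 fold change 0.19 ± 0.04 SE, edgeR adjusted p = 0.0204). Gnl3, the nucleolar GTPase nucleostemin, averaged 59.9 ± 4.03 CPM in libraries labelled Nlrp6ko and 49.6 ± 3.20 CPM in libraries labelled WT (0.27 ± 0.06 SE, edgeR adjusted p = 0.0269). Ltv1, a factor of small subunit assembly, averaged 37.2 ± 0.72 CPM in libraries labelled Nlrp6ko and 32.9 ± 1.17 CPM in libraries labelled WT (0.17 ± 0.05 SE, edgeR adjusted p = 0.0412). Ubtf, which supports transcription by RNA polymerase I, stood at -0.19 ± 0.05 (SE, edgeR adjusted p = 0.0523). These calls were not firm when 1 library was left out. Nop58 passed in 3 of 8 such fits and not without KO 1, KO 5, WT 1, WT 2 or WT 4 (edgeR adjusted p up to 0.0699), Gnl3 in 4 and not without KO 1, KO 4, WT 1 or WT 4 (up to 0.0806), and Ltv1 only in the 1 without KO 4 (up to 0.132 in the other 7). Without KO 4 and KO 5 none of Nop58, Gnl3 and Ltv1 passed, with edgeR adjusted p of 0.120, 0.0521 and 0.0874.

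Of 15 chaperones and assembly factors 0 passed with edgeR or DESeq2 and 1 had an unadjusted p below 0.05. This was Mdn1, the AAA ATPase of large subunit assembly, with a log2 fold change of 0.22 ± 0.08 (SE, edgeR adjusted p = 0.146). Of 20 regulators of TOP mRNA translation and of ribosomal protein genes 0 were higher (1 at an unadjusted p below 0.05) and 1 was lower by edgeR. The 1 was Mxd4, an antagonist of Myc, which averaged 40.2 ± 3.65 CPM in libraries labelled Nlrp6ko and 51.1 ± 3.36 CPM in libraries labelled WT (log2 fold change -0.35 ± 0.07 SE, edgeR adjusted p = 0.0167). Larp1, which binds the TOP tract, stood at 0.10 ± 0.05 (SE, edgeR adjusted p = 0.244). Mxd4 passed in 6 of the 8 fits that leave out 1 library and not without KO 1 or WT 1 (edgeR adjusted p up to 0.0522), and without KO 4 and KO 5 its adjusted p was 0.0798.

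The mitochondrial ribosomal protein genes, the family most alike in function, had 1 member higher and 1 lower of 77, where all genes gave 6.2% higher and 3.84% lower. Mrpl30 averaged 27.9 ± 0.653 CPM in libraries labelled Nlrp6ko and 23.98 ± 0.594 CPM in libraries labelled WT (log2 fold change 0.22 ± 0.05 SE, edgeR adjusted p = 0.0132). Mrps23 averaged 37.6 ± 2.03 CPM in libraries labelled Nlrp6ko and 47.2 ± 2.18 CPM in libraries labelled WT (-0.33 ± 0.06 SE, edgeR adjusted p = 0.00469), and it passed in all 8 fits that leave out 1 library. Mrpl30 passed in 7 of the 8 and not without WT 2, where its edgeR adjusted p was 0.0516. Without KO 4 and KO 5 the edgeR adjusted p was 0.0879 for Mrpl30, which then did not pass, and 0.0328 for Mrps23, which did. Their summed level was 1747 ± 77.4 CPM in libraries labelled Nlrp6ko and 1741 ± 24.2 CPM in libraries labelled WT (SD, n = 4 each).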

How the data were processed

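The deposited values are counts of reads per gene, whole numbers that were not normalised by the authors, with a gene length beside each. Per the labels' protocols, stranded poly(A) libraries were sequenced as single reads of 81 bases. Per the submitters' processing notes the aligner was STAR and the build mm10. The counting tool, its annotation, its strand setting and its treatment of reads that match several loci were not given in the sources used here. The labels give 4 libraries of each label, numbered by host, without saying from how many donors the cells came, so p-values measure only how these libraries vary, which may be technical.

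CPM were computed on TMM effective library sizes. Genes were tested with edgeR 4.0.16 (estimateDisp, glmQLFit, glmQLFTest, the label as the only term), p-values were adjusted by Benjamini-Hochberg over all 11354 genes, and filterByExpr removed none. DESeq2 1.42.0 and limma 3.58.1 (voom) served as alternatives in R 4.3.3. The fits were checked on simulated counts. Windows of 81 bases overlapping a member's coding sequence were searched for exactly in all other GENCODE vM21 transcripts, on either strand, so unannotated copies are missed. The 4 members of highest and of lowest level, the 8 of smallest p, paralogs, a fixed set of members and the 4 genes of smallest p in each list are named. Rpl27, Rpl12, Rpl31, Rpl21, Rpl36 and other members that the text singles out beyond these were chosen after their values were seen. The members, lists and tests were chosen with earlier results of these data known. Same-numbered libraries of the labels correlated at -0.06, 0.18, -0.14 and 0.26 in their deviations from the group means. The main fit did not pair libraries by host number, and these correlations cannot exclude pairing. Single values of some members are not reported here, while counts and sums over the members include them.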

Additional observations from a re-analysis of the deposited data

Results flagged for a closer look

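Among 60 groups of 4 libraries checked for 1 library far from the others (Dixon's test at its 95% critical value), 5 were marked, and chance marks about 1 in 20. KO 4 was apart from its label for 3 genes. Its 264.7 CPM of Rps20 compared with 297 to 303 CPM in KO 1, KO 2 and KO 5, its 260.0 CPM of Rps19 with 300.4 to 302 CPM, and its 126 CPM of Rps27 with 103 to 105 CPM. WT 1 was apart for 2 genes, with 253 CPM of Rps19 beside 268 to 271 CPM and 402 CPM of Rps3a1 beside 414 to 415 CPM in WT 2, WT 4 and WT 5.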

How the results depend on the processing

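Members called higher numbered 2. The count was 1 with RLE size factors and 1 with total library size, 3 with limma-voom (Rps29, Rps19 and Rps20, without Rpl23a), 0 with the library code as a term, 0 without KO 2 and KO 4, 0 without KO 4 and KO 5 (an alternative chosen after seeing the data), and 0 to 3 over fits that leave out 1 library. The members called higher also numbered 0 with a replicate block by host number, alone or with RLE factors (0). Both labels use the same host numbers, and whether these pair the libraries is not settled here. The fit with the library code rests on the same comparison of labels as that without KO 4 and KO 5, so these are not separate alternatives. Calls over all genes were 745 with the library code as a term and 804 to 1197 leaving out 1 library, against 1140. No member was called lower under any alternative (0 to 0 leaving out 1 library). The median log2 fold change was 0.076 without KO 2 and KO 4 and 0.033 to 0.054 leaving out 1 library. The share difference was 0.137 percentage points without KO 2 and KO 4, and 0.0228 to 0.103 leaving out 1 library. Signs turned only for values near 0 or of few counts, none of which passed the test. Rps4l stood at -0.11, but at 0.83 with limma-voom, 0.0446 with the replicate block, 0.0433 with the block and RLE, 0.33 with the library code, 0.33 without KO 4 and KO 5, and -0.76 to 0.76 leaving out 1 library. Rpl28 stood at -0.0755 without KO 2 and KO 4, Rpl7l1 at 0.0389 and Rpsa at 0.0022 likewise. Rpl7 stood at 0.0142 with the library code and 0.0140 without KO 4 and KO 5. Leaving out 1 library gave -0.0365 to 0.141 for Rpl38, -0.0460 to 0.00538 for Rpl7l1, -0.0401 to 0.00747 for Rpl7 and -0.00042 to 0.0367 for Rps3a1. Of the other values of named genes, 369 kept direction and call leaving out 1 library, 33 lost the call and 5 gained it, and under the other alternatives 520 kept both, 32 lost the call and 10 gained it. The causes were not tested. Members under about 100 counts a library (Rps23, Rpl28, Rps4l) are limited by depth, and levels of members with listed copies by read placement.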
